A study of Saccharomyces cerevisiae with 16 samples.

Results

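The genes described are those of the cytosolic ribosomal proteins of Saccharomyces cerevisiae, many of which come as a pair of near-identical copies, A and B. They were taken from the array's gene symbols by pattern: RPL or RPS with a number and an optional A or B, and RPP0 to RPP2 with an optional A or B. The pattern found 136 of the 4073 genes with values. RPP1 was set aside, because it encodes a subunit of the nucleases RNase P and RNase MRP and no ribosomal protein, which left 135 members. Of these, 75 belong to the large subunit, 55 to the small subunit and 5 to the stalk (RPP0, RPP1A, RPP1B, RPP2A and RPP2B). Both copies were measured for 58 pairs (116 members), and 19 members stood alone.

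The study compared wild-type W303 yeast with the strain esa1-L254P::NatRMX4 of the same background, which carries a point allele of ESA1, the catalytic acetyltransferase subunit of the NuA4 complex, marked with a nourseothricin resistance cassette. For G1, cells were held with alpha factor for 1 h and then kept with or without 0.05% methyl methanesulfonate (MMS, an agent that alkylates DNA) for 1 h. For S phase, cells were held for 2 h, washed and released for 1 h into medium with or without the same MMS concentration. Each of the 8 direct comparisons had 2 arrays (16 in all) on which the dyes were exchanged: treated against untreated cells within each strain and phase, and mutant against wild type within a phase, with and without MMS. The deposited ratios were turned so that positive means higher with MMS or higher in esa1-L254P. This sign rests on reading them as Cy5 over Cy3, and they are treated as log2 values; neither is stated in the sources used here. Values were joined to genes through an order of the array's spots that was found by search, as the processing account describes. Whether the arrays of a comparison came from separate cultures is not given in the sources used here, so the p-values measure the spread between these arrays, which may be technical. Ratios are relative to the middle of each array, and in bulk RNA fewer cells of a kind and less RNA per cell cannot be told apart.

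Ribosomal proteins coat and stabilise the ribosomal RNA, and cells need them in matched amounts. In growing yeast their genes are among the most strongly transcribed, driven by Rap1 with Fhl1, Ifh1 and Sfp1, and TORC1 and protein kinase A signalling keeps them on. They are known as the group of genes that falls together when yeast meets stress, including DNA damage. Most pairs of copies date from an ancient duplication of the genome. NuA4 acetylates histone H4 and is known to be recruited to ribosomal protein promoters.

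Nearly all of these genes carried a dye effect, which bears on every value given here. A gene-specific dye term, fitted with limma as the replicate number over all 16 arrays, had a median of 1.03 over the 135 members, the amount by which the Cy5 side exceeded the Cy3 side on each array. It was called for 133 members (132 above 0), against 53.0% of all 4073 genes called in either direction. Its median over the other 3938 genes was -0.01, and 126 members and 171 of the others lay above 0.5. In each of the 8 comparisons the first array, with the test RNA in Cy5, gave higher values than the second for 132 to 134 of the 135 members. The mean of both arrays cancels a dye effect that is equal on both. RPL23B had the highest dye term, at 1.39. RPL15B was the only member with a called term below 0 (-0.21), and RPS7B (-0.01) and RPL18B (0.20) were the members whose term was not called. RPL9B (0.25), RPL7B (0.29), RPS9A (0.41), RPL22B (0.42), RPL8A (0.45) and RPL6B (0.50) followed; their other copies, where measured, carried larger terms.

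**Figure D1:**
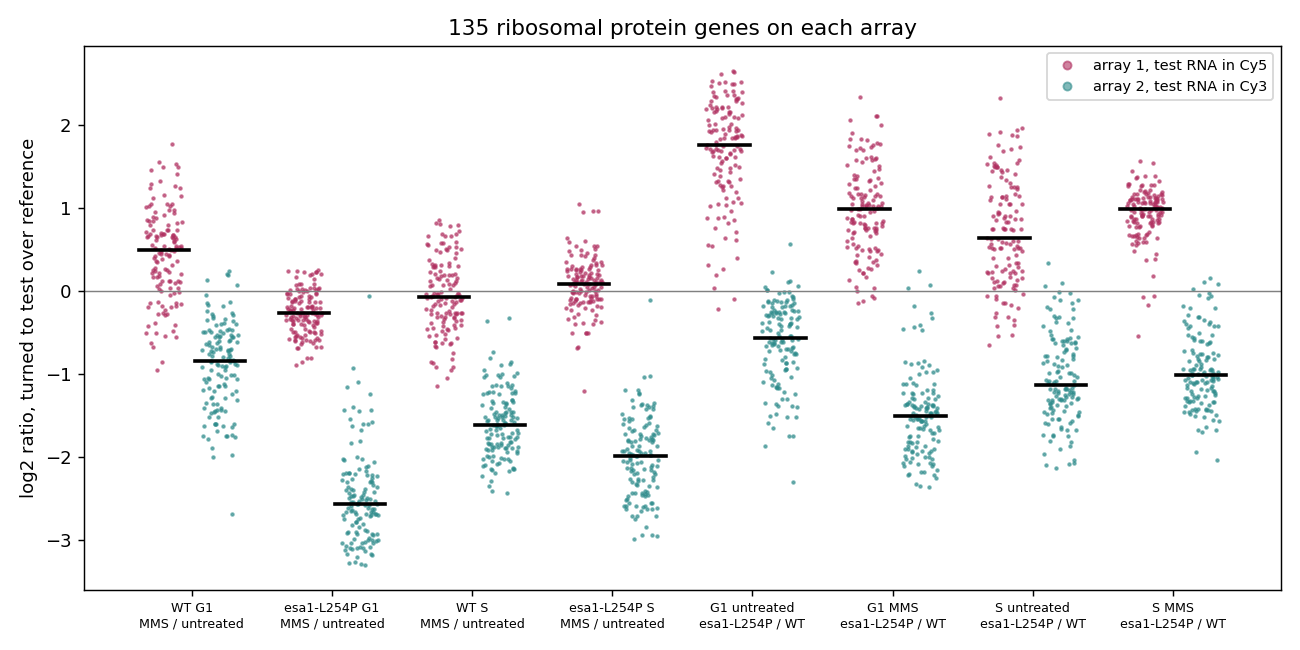
Turned log2 ratios of the 135 ribosomal protein genes (points, vertical axis) on both arrays of each of the 8 comparisons (horizontal axis), with black bars at the medians. The first array lies above the second throughout: in wild-type G1 the medians were 0.50 and -0.84, and in esa1-L254P G1 they were -0.26 and -2.57.

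Members were called at an adjusted p under 0.05 in limma, adjusted over all 4073 genes. The fit without a dye term keeps the whole dye effect as spread between the arrays. Counts from it are given first, and counts from the fit with the dye term (the replicate number as a block), which has the same ratios, are given beside them. Standard errors after a ± sign are from the fit with the dye term, with n = 2 arrays per ratio.

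The first question was what MMS did to these genes in wild-type cells held in G1. The members split: their median ratio was -0.19, and 91 of 135 lay below 0, over a range from -1.27 to 0.61. The median of all genes was 0.02. Without the dye term 2 members were called lower, against 16.9% of all genes, and 0 higher, against 19.5%: RPL18B (-0.93, adjusted p = 0.0402) and RPS7B (-0.64, adjusted p = 0.0253). Both were named after their values were seen, and both belong to the few members with a small dye term. With the dye term 39 members were lower, a share of members close to the 27.6% of all genes, and 3 were higher, against 29.0% of all genes. Without the first array the fit with the dye term called 14 members in either direction, and without the second 46.

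The lowest members in wild-type G1 were RPL4A, RPL4B and RPP0. RPL4A, whose protein lines the peptide exit tunnel, read -0.56 on the first array and -1.98 on the second (-1.27 ± 0.25, adjusted p = 0.00234 with the dye term, 0.369 without). Its copy RPL4B read -0.51 and -1.89 (-1.20 ± 0.15, adjusted p = 0.000151 and 0.329). RPP0, which anchors the stalk, read -0.51 and -1.75 (-1.13 ± 0.19, adjusted p = 0.000894 and 0.390). For these genes both arrays lay below 0. RPL5, which carries the 5S RNA into the large subunit, gave -0.67 and -1.51, and RPL3, which reaches to the peptidyl transferase centre, gave -0.19 and -1.63. At the other end, RPL36A read 1.02 and 0.21 (0.61 ± 0.21, adjusted p = 0.0343 with the dye term, 0.554 without). RPL35A (0.61, adjusted p = 0.0885) and RPL24B (0.61, adjusted p = 0.0597) did not pass with the dye term. RPS3, at the messenger RNA entry of the small subunit, gave 0.54 and -0.56 and a mean of -0.01. RPL30, whose protein blocks the splicing of its own transcript, gave 0.23 and -1.44 (-0.60 ± 0.18, adjusted p = 0.0192 with the dye term).

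In esa1-L254P cells in G1, MMS lowered nearly the whole group. All 135 members had ratios below 0, with a median of -1.40 (-0.79 after quantile normalization between arrays) and a range from -1.87 to -0.24. On both arrays 110 members (81.5%) lay below 0, against 35.8% of all genes. Leaving the dye term out, 2 members were lower (14.6% of all genes) and 0 higher (13.6%): RPL9B (-1.20, adjusted p = 0.0137) and RPS7B (-0.73, adjusted p = 0.0174), named after their values were seen. Once the dye term was fitted, 131 were lower, against 27.5% of all genes, and 0 were higher, against 23.8%. RPL25, on which targeting factors dock at the exit tunnel, read -0.46 and -3.29 (-1.87 ± 0.24, adjusted p = 0.000266 with the dye term, 0.227 without). RPL9A read -0.64 and -3.10 (-1.87 ± 0.17). RPL39, a short protein inside the exit tunnel, read -0.58 and -3.12 (-1.85 ± 0.17, adjusted p = 5.11e-05 with the dye term, 0.130 without). RPS3 read -0.67 and -2.25 (-1.46 ± 0.12, adjusted p = 2.76e-05 with the dye term). RPL30 read -0.13 and -3.02, a mean of -1.58. All of these lay below 0 on both arrays. The second array read lower, as it did for 134 of the 135 members here, which is the direction of the dye effect. The least lowered members were RPL15B (-0.24, adjusted p = 0.0764), RPS9A (-0.57, adjusted p = 0.0529) and RPS14B (-0.58, adjusted p = 0.0936), which did not pass with the dye term. RPL3 (-0.60, adjusted p = 0.0158), RPL4B (-0.78, adjusted p = 0.00229) and RPL4A (-0.80, adjusted p = 0.0256) lay close above them and passed.

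In S phase, all 135 members were below 0 with MMS in both strains. In wild type the median was -0.82, with a range from -1.69 to -0.12, and 79 members (58.5%) lay below 0 on both arrays, against 43.5% of all genes. The median of the first array was -0.07 and that of the second -1.61. Before fitting the dye term, 3 members were lower (20.7% of all genes) and 0 higher (18.2%): RPS7B (-0.94, adjusted p = 0.0035), RPL9B (-1.19, adjusted p = 0.0101) and RPL15B (-0.62, adjusted p = 0.0464), named after their values were seen. After fitting the dye term, 103 were lower, against 32.3% of all genes, and 0 were higher, against 26.6%. Without the first array this fit called 36 members and without the second 90. The lowest was RPS26B, whose protein sits at the messenger RNA exit, at -0.95 and -2.44 (-1.69 ± 0.21, adjusted p = 0.000115 with the dye term, 0.0981 without). RPS6A (-1.61 ± 0.23) and RPS6B (-1.54 ± 0.18), the copies of the phosphorylated small subunit protein, followed it. RPS3 gave -0.36 and -2.14 (-1.25 ± 0.12, adjusted p = 2.53e-05 with the dye term). The members nearest 0 were RPP2B (-0.12), RPS14A (-0.17) and RPL3 (-0.19), whose arrays lay on opposite sides of 0 and whose adjusted p with the dye term was 0.601, 0.508 and 0.361. RPL30 was lower in this comparison too (-0.53 ± 0.18, adjusted p = 0.0324 with the dye term).

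In esa1-L254P cells in S phase the median was -0.97 (-0.53 after quantile normalization), with a range from -1.83 to -0.14. Here 53 members (39.3%) lay below 0 on both arrays, against 35.7% of all genes, since the median of the first array was 0.09 and that of the second -1.98. Without the dye term 4 members were lower (17.0% of all genes) and 0 higher (16.3%): RPS7B (-1.04, adjusted p = 0.0024), RPL18B (-1.15, adjusted p = 0.0175), RPL8A (-1.49, adjusted p = 0.0259) and RPL7B (-1.15, adjusted p = 0.0334), named after their values were seen. With the dye term 123 were lower, against 30.3% of all genes, and 0 were higher, against 25.3%. Without the first array this fit called 85 members and without the second 55. RPS14B, of the platform of the small subunit, was lowest at -0.68 and -2.98 (-1.83 ± 0.26, adjusted p = 0.000363 with the dye term, 0.0658 without). RPL12A, at the base of the stalk, gave -0.19 and -2.95 (-1.57 ± 0.26), and the stalk gene RPP2A gave -0.06 and -2.94 (-1.50 ± 0.26). The members nearest 0 were RPL41B (-0.14), RPL41A (-0.19) and RPS30A (-0.22), which encode very short proteins and did not pass. RPL39, among the lowest members in G1 of this strain, was at -0.36 here (adjusted p = 0.107 with the dye term).

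**Figure D2:**
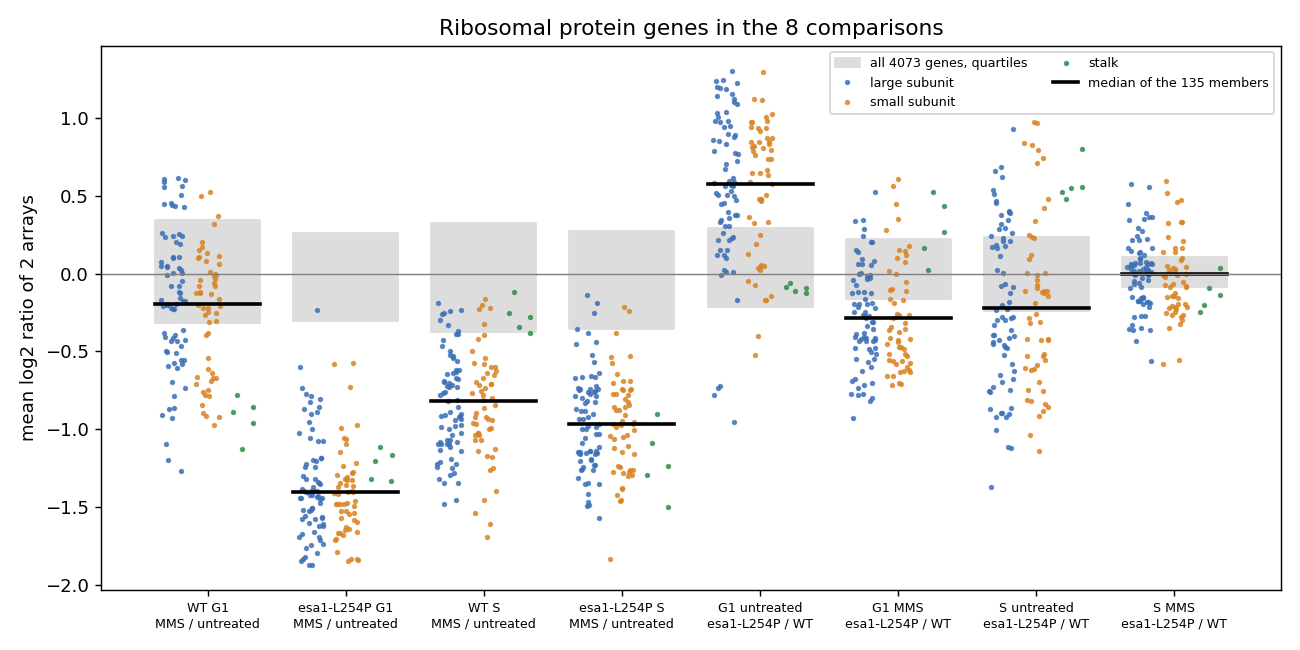
Mean log2 ratio of the 2 arrays (vertical axis) for the large subunit, small subunit and stalk genes in the 8 comparisons (horizontal axis). Black bars are the medians of the 135 members and grey boxes the quartiles of all 4073 genes; the member medians with MMS were -0.19, -1.40, -0.82 and -0.97, and the 5 stalk genes stand below the median in wild-type G1 and above it in wild-type S.

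Counted over the 4 MMS comparisons with the dye term, 22 members were lower in all 4, 85 in 3 and 26 in 2. Of all 4073 genes, 7.39% were lower in all 4, 13.6% in 3 and 14.6% in 2. RPL15B was lower in 1. RPS1A was lower in 0, and its values are uncertain: its spots differed by 0.67 on average over the 16 arrays, against 0.21 for the median member. RPL33A (0.52), RPS7A (0.52) and RPL10 (0.38) also had spots far apart. In wild type, 22 members (16.3%) were lower in both phases, a share near the 12.2% of all genes, and RPL24A, RPL31A and RPL36A were higher in G1 and lower in S (2.22% of members, 9.23% of all genes). In esa1-L254P, 121 (89.6%) were lower in both phases, against 17.6% of all genes.

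The strain comparisons ask how the members differ between esa1-L254P and wild type. In untreated G1 cells most of them were higher in the mutant: the median was 0.57 (0.22 after quantile normalization), and 18 of 135 lay below 0. Leaving the dye term out, 0 members were called, against 21.9% of all genes. At an unadjusted p under 0.05 there were 0 members, against 1361 of all 4073 genes. Once the dye term was fitted, 70 were higher, against 24.7% of all genes, and 4 were lower, against 19.0%. Without the first array that fit called 12 members and without the second 51. RPL34B read 2.49 and 0.12 (1.31 ± 0.20, adjusted p = 0.000775 with the dye term, 0.304 without) and RPS26B 2.49 and 0.11 (1.30 ± 0.21, adjusted p = 0.00102 and 0.255). Both genes were above 0 on each array, which was so for 7 members in all. RPL19B, the third highest, gave 2.61 and -0.12. RPS3 (0.84 ± 0.12) and RPS31 (0.84 ± 0.15) were higher with the dye term, at adjusted p = 0.00055 and 0.00177. The 4 lower members were the large subunit genes RPL4A (0.40 and -2.30, mean -0.95 ± 0.25), RPL3 (0.31 and -1.87, mean -0.78 ± 0.17), RPL5 (0.04 and -1.51, mean -0.73 ± 0.21) and RPL4B (0.20 and -1.65, mean -0.73 ± 0.15). Their adjusted p with the dye term lay between 0.00414 and 0.0187, and each had arrays on opposite sides of 0.

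In untreated S cells the members spread in both directions around a median of -0.22, from -1.37 to 0.97. Before fitting the dye term, 0 were called, against 21.6% of all genes. At an unadjusted p under 0.05 there was 1 member, against 1335 of all 4073 genes. After fitting the dye term, 36 were lower, a share of members somewhat above the 21.5% of all genes, and 15 were higher, a share below the 18.3%. Without the first array that fit called 3 members and without the second 19. RPL39 was lowest, at -0.65 and -2.09 (-1.37 ± 0.17, adjusted p = 0.00032 with the dye term, 0.302 without). RPS26B read -0.53 and -1.75 (-1.14 ± 0.21) and RPL31A, whose protein lies at the exit of the tunnel, -0.20 and -2.04 (-1.12 ± 0.20). These were below 0 on both arrays. RPS11B read 1.89 and 0.06 (0.97 ± 0.21, adjusted p = 0.0058 with the dye term), the only one of the 3 highest with both arrays above 0. RPS4A gave 2.32 and -0.38 (0.97 ± 0.24) and RPL7A 1.96 and -0.11 (0.93 ± 0.27).

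The order of the members was reversed between the phases in untreated cells. Over the 135 members, which share arrays and are not independent, the ratio in G1 and that in S correlated at Pearson r = -0.77 and Spearman rho = -0.79; over all 4073 genes rho was -0.66, so the reversal is not particular to these genes. From the first arrays alone rho was -0.53 and from the second alone -0.43. The G1 and the S comparison share no array. With the dye term 35 members (25.9%) were higher in G1 and lower in S, against 15.8% of all genes, with both copies of RPL27, RPL34, RPL41, RPL42, RPS6, RPS23, RPS24, RPS26 and RPS30 among them. RPL4B and RPL5 (1.48% of members) were lower in G1 and higher in S, against 9.62% of all genes. No member was higher in both or lower in both, against 0.884% and 0.810% of all genes. The difference between the phases was itself fitted, a contrast added after the values were seen. Its median was -0.78 (-0.51 after quantile normalization). Without the dye term 0 members were called, against 33.6% of all genes. At an unadjusted p under 0.05 there were 2 members, against 1750 of all 4073 genes. With the dye term 68 members were lower, against 29.1% of all genes, and 12 higher, against 24.9%. The largest differences were RPS26B (-2.43 ± 0.29, adjusted p = 0.000116 with the dye term), RPL34B (-2.42 ± 0.28) and RPL39 (-2.36 ± 0.25) on one side and RPL5 (1.40 ± 0.29, adjusted p = 0.00319), RPS11B (1.37 ± 0.30) and RPS11A (1.35 ± 0.30) on the other.

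**Figure D3:**
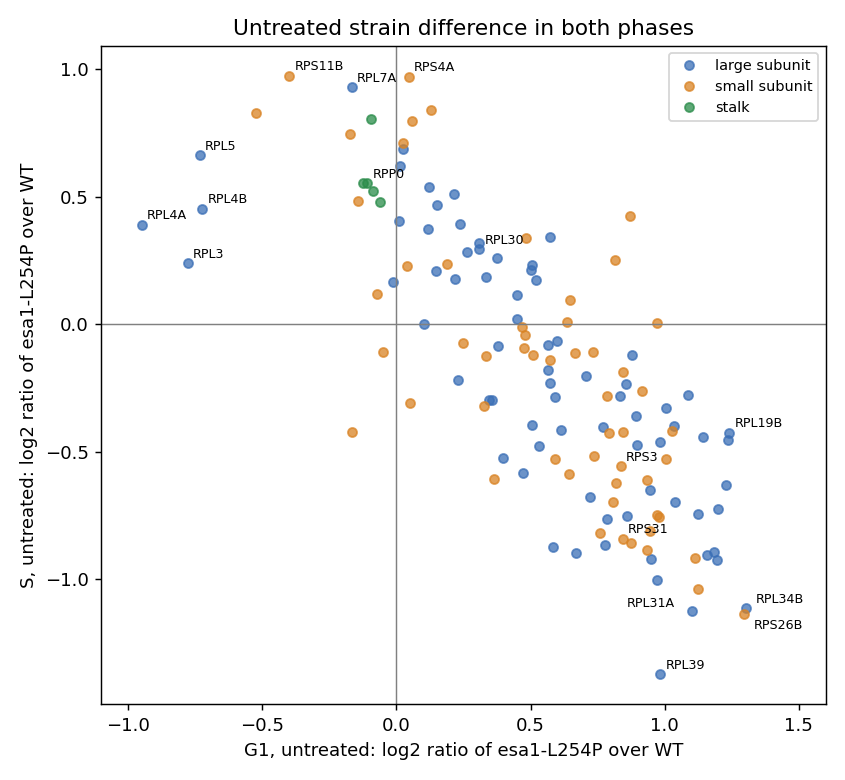
Log2 ratio of esa1-L254P over wild type in untreated cells, in G1 (horizontal axis) and in S (vertical axis), for the 135 members, 1 point each, coloured by subunit. The points run from the upper left (RPL5, RPS11B) to the lower right (RPS26B at 1.30 and -1.14, RPL39 at 0.98 and -1.37), with Spearman rho = -0.79.

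With MMS fewer members were called between the strains with the dye term than without MMS, and this was so for all genes too. In G1 the median ratio of esa1-L254P over wild type was -0.28, and 103 of 135 members lay below 0. Without the dye term 0 were called, against 10.4% of all genes. At an unadjusted p under 0.05 there were 0 members, against 990 of all 4073 genes. Once the dye term was fitted, 20 were lower, a share of members close to the 14.0% of all genes, and 0 higher, against 15.2%. Without the first array that fit called 15 members and without the second 4. RPL39 read 0.13 and -1.99 (-0.93 ± 0.17, adjusted p = 0.0045 with the dye term, 0.573 without), RPL34B 0.04 and -1.68 (-0.82 ± 0.20) and RPL31A 0.49 and -2.09 (-0.80 ± 0.20). Each had arrays on opposite sides of 0. RPS4A (0.61), RPS11A (0.56) and RPL7A (0.53) were highest and did not pass. RPS3 was at -0.53 ± 0.12 (adjusted p = 0.0101 with the dye term).

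In S with MMS the members were centred on 0 (median -0.00, range -0.58 to 0.60). Leaving the dye term out, 0 members were called, against 0.0737% of all genes. At an unadjusted p under 0.05 there was 1 member, against 249 of all 4073 genes. After fitting the dye term, 0 were lower, against 1.23% of all genes, and 0 higher, against 1.15%. RPS7B, with hardly any dye effect, read -0.54 and -0.57 (-0.55 ± 0.19, adjusted p = 0.207 with the dye term). RPS27B (-0.58), RPL12A (-0.56), RPS6B (0.60), RPL19A (0.57) and RPL41A (0.56) were the other members farthest from 0. In this comparison the arrays before turning correlated at 0.61 over all genes, so they resembled each other by dye and not by strain; in the other strain comparisons this correlation was -0.16 (G1 untreated), -0.29 (S untreated) and 0.21 (G1 with MMS).

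The 4 comparisons of a phase join the same 4 conditions in a loop, so the strain difference of the MMS response can be formed in 2 ways, from the MMS comparisons or from the strain comparisons. In G1 the response of the members was lower in esa1-L254P: the mean of both ways had a median of -1.05, with -1.23 from the MMS comparisons and -0.91 from the strain comparisons, and 120 of 135 members below 0. Quantile normalization between arrays brought the median to -0.65. Before fitting the dye term, 1 member passed, RPL20B (-1.89, adjusted p = 0.0368), against 41.8% of all genes called; it was named after its value was seen, and it passed in neither way alone. With the dye term 99 were lower, against 31.6% of all genes, and 4 were higher, against 31.4%. RPL31A (-2.09 ± 0.20, adjusted p = 2.15e-05 with the dye term), RPL35A (-2.08 ± 0.28) and RPL34B (-2.02 ± 0.20) were lowest. RPL4A (0.81 ± 0.25), RPL4B (0.65 ± 0.15), RPL5 (0.55 ± 0.21) and RPL3 (0.52 ± 0.17) were the 4 higher members, at adjusted p = 0.0201, 0.00462, 0.042 and 0.0234.

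In S this difference was split evenly among the members. Its median was 0.06 (0.20 after quantile normalization), with -0.12 from the MMS comparisons and 0.18 from the strain comparisons. Without the dye term 0 members passed, against 22.6% of all genes. At an unadjusted p under 0.05 there were 0 members, against 1416 of all 4073 genes. Once the dye term was fitted, 27 were lower, against 21.1% of all genes, and 27 higher, against 23.5%, shares near those of all genes. RPL39 (1.34 ± 0.17, adjusted p = 0.000359 with the dye term), RPL31A (1.20 ± 0.20) and RPL34B (1.20 ± 0.20) were highest. RPS11B (-1.19 ± 0.21), RPS14A (-1.07 ± 0.21) and RPP2A (-1.03 ± 0.26) were lowest. RPL31A and RPL34B were thus among the lowest members in G1 and among the highest in S.

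The difference between both ways would be 0 if the arrays of the loop agreed, and measures the error between arrays that the members share. An error in the RNA of a condition cancels where all its arrays used that RNA, so it is not seen. The median difference over the members was 0.39 in G1, where 119 of 135 lay above 0, and 0.29 in S, where 124 did. Over all genes the medians were 0.00 and 0.02, and the median absolute difference 0.11 in each phase. No member's difference was called in limma with or without the dye term, nor was that of any other gene. With the dye term 2 members in G1 and 0 in S had an unadjusted p under 0.05, against 67 and 73 of all 4073 genes. Some member medians are smaller in size than the median difference of their phase. Such were -0.19 (MMS, wild-type G1), -0.28 (strains, G1 with MMS) and -0.22 (strains, untreated S). Those of -1.40, -0.97, -0.82, 0.57 and -1.05 are larger, though quantile normalization brought the 0.57 below 0.39. This does not bound the error of any median. The difference adds up the errors of several comparisons and misses those of a condition's RNA.

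**Figure D4:**
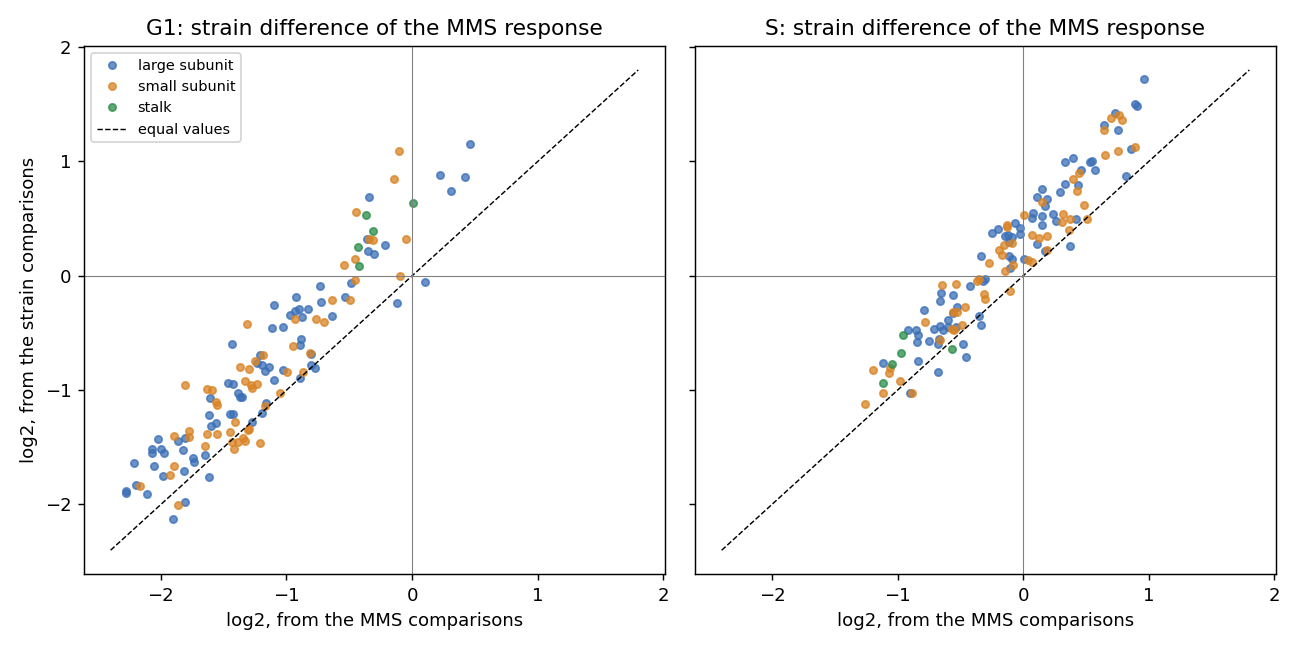
Strain difference of the MMS response (log2) of each member from the MMS comparisons (horizontal axis) and from the strain comparisons (vertical axis), in G1 on the left and in S on the right. The dashed line marks equal values; most points lie above it, by a median of 0.39 in G1 and 0.29 in S.

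Phases were compared within each strain as S minus G1. In wild type the MMS response of the members was lower in S, with a median of -0.64 (-0.42 after quantile normalization). Leaving the dye term out, 0 were called, against 32.2% of all genes. At an unadjusted p under 0.05 there were 0 members, against 1715 of all 4073 genes. After fitting the dye term, 57 were lower, against 27.6% of all genes, and 5 higher, against 24.0%. Leaving out single arrays moved this count between 30 (without the first S array) and 74 (without the first G1 array). In esa1-L254P the difference ran the other way, with a median of 0.44. There 0 were called without the dye term, against 10.3% of all genes. At an unadjusted p under 0.05 there were 0 members, against 961 of all 4073 genes. With the dye term 1 was lower, RPS14B (-1.25 ± 0.37, adjusted p = 0.0338), against 14.8% of all genes, and 22 were higher, against 12.9%. That count was 1 without the second G1 array and 21 without the first; without the first or the second S array it was 9 or 6. RPL39 was lower in S in wild type (-1.58 ± 0.25, adjusted p = 0.000579 with the dye term) and higher in S in esa1-L254P (1.49 ± 0.25, adjusted p = 0.00196). Between G1 and S, the order of the members' MMS responses was reversed in wild type (rho = -0.64, against 0.25 over all genes) and loosely so in esa1-L254P (rho = -0.24, against 0.62). On single arrays rho was -0.20 and -0.27 in wild type, and 0.12 and 0.20 in esa1-L254P, where the direction thus turned.

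The stalk genes had values close to each other. The stalk is the flexible arm of the large subunit to which translation factors bind, built from RPP0 and the acidic proteins of the other 4 genes. With MMS in wild-type G1 their median was -0.89. With the dye term all 5 were lower, against 27.6% of all genes, at adjusted p between 0.000894 (RPP0) and 0.0115 (RPP2A). In wild-type S their median was -0.28 and 0 of the 5 passed, against 32.3% of all genes lower and 26.6% higher. The difference between these phases was 0.57 to 0.79. It passed for RPP0 alone (0.79 ± 0.27, adjusted p = 0.0354), against 24.0% of all genes higher. In esa1-L254P the 5 genes were lower in both phases, with medians of -1.20 in G1 and -1.24 in S. All 5 passed in each, against 27.5% and 30.3% of all genes lower. In S the response of the 5 genes differed between the strains in 1 direction, below 0 for each (median -0.82). All 5 passed with the dye term (adjusted p from 0.00546 to 0.0296), against 21.1% of all genes lower. In G1 this difference lay between -0.17 and 0.32 and 0 passed, against 31.6% of all genes lower and 31.4% higher. Untreated, the strains differed by -0.13 to -0.06 in G1, where 0 of 5 passed, against 19.0% of all genes lower and 24.7% higher. In untreated S, 3 of 5 were higher in esa1-L254P (median 0.55), against 18.3% of all genes. With MMS in wild-type S every one of the 5 read above 0 on the first array and below 0 on the second. Arrays on opposite sides of 0 were also seen where stalk genes passed. This was so for 2 of 5 in wild-type G1, 3 in esa1-L254P G1 and 4 in esa1-L254P S with MMS, and for all 5 between the strains in untreated S. Before fitting the dye term, none of the 5 passed in any of these comparisons.

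The members least like the rest were large subunit genes. They were chosen for their low correlation with the median member, over the same ratios as given here, so their unlike pattern restates that choice. The ratios of RPL3, RPL4A, RPL4B and RPL5 over the 8 comparisons correlated with those of the median member at 0.04, 0.15, 0.22 and 0.23, against a median of 0.91 over the members. With MMS in wild type they were lower in G1 (-0.91, -1.27, -1.20 and -1.09) and near 0 in S (-0.19, -0.39, -0.25 and -0.26). In S 0 of 4 passed with the dye term, against 32.3% of all genes lower and 26.6% higher. In esa1-L254P with MMS these 4 genes were at -0.60, -0.80, -0.78 and -0.87 in G1 and at -0.87, -1.14, -1.09 and -1.16 in S. With the dye term all 4 passed in each, against 27.5% and 30.3% of all genes lower. Without the dye term 0 of the 4 passed in any MMS comparison (lowest adjusted p = 0.259, RPL5 in esa1-L254P S).

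RPS31, RPL40A and RPL40B encode ribosomal proteins made as fusions to ubiquitin, and thus supply both ribosomes and free ubiquitin. In wild-type G1 with MMS they lay at -0.25, -0.05 and 0.00. With the dye term 0 of 3 passed, against 27.6% of all genes lower and 29.0% higher. In esa1-L254P G1 the 3 genes were at -1.58, -1.48 and -1.45, in wild-type S at -1.18, -0.68 and -0.86, and in esa1-L254P S at -0.53, -0.79 and -0.98. With the dye term all 3 passed in each, against 27.5%, 32.3% and 30.3% of all genes lower. In untreated G1 the 3 genes were higher in esa1-L254P (0.84, 0.59 and 0.89). With the dye term all 3 passed, against 24.7% of all genes higher, but all 3 had arrays on opposite sides of 0. In untreated S the 3 genes were at -0.84, -0.28 and -0.36. There RPS31 passed (adjusted p = 0.00187 with the dye term), against 21.5% of all genes lower. Without the dye term 0 of 3 passed in any of these comparisons. The subunits themselves did not separate: in the 4 MMS comparisons the medians of the large subunit genes were -0.17, -1.40, -0.89 and -0.96 and those of the small subunit genes -0.20, -1.46, -0.84 and -0.97. Members with 1 copy measured had medians of -0.25, -1.48, -0.80 and -0.90.

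Paralogs were compared within each array, where effects common to both copies cancel. Copies with near-identical transcripts may bind each other's probes, so a small difference can come from shared signal. The mean absolute difference of A and B over the 8 comparisons had a median of 0.19 over the 58 pairs, from 0.06 for RPL35 to 0.56 for RPL20. From single arrays that median was 0.28 to 0.32. Between pairs the spread was larger than within them: the SD of the pair means was 0.20 to 0.51 by comparison, that of the half-differences 0.11 to 0.17. The ratios of A and B correlated across pairs at Pearson r from 0.44 (esa1-L254P G1 with MMS) to 0.81 (untreated S, strains).

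The copies that parted most were RPL20A and RPL20B. In untreated S, esa1-L254P over wild type was 0.34 for RPL20A (1.25 and -0.56) and -0.92 for RPL20B (-0.42 and -1.43), and A minus B was 1.67 and 0.86 on the arrays, a mean of 1.27. In wild-type S with MMS, RPL20A was at -0.67 and RPL20B at -1.48 (A minus B 0.99 and 0.62). In untreated G1 the order turned, with RPL20B higher by 0.47 and 0.78 on the arrays. Both arrays gave the same sign for this pair in 6 of 8 comparisons.

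RPS26A lay above RPS26B in each comparison but wild-type G1 with MMS and untreated G1, with the largest mean difference in wild-type S with MMS (0.70, from 0.79 and 0.61). RPS27A lay above RPS27B by 1.08 in wild-type G1 with MMS (0.61 and 1.55) and by 0.78 in untreated G1. RPL36A lay above RPL36B by 0.74 in wild-type G1 with MMS (0.42 and 1.06) and below it by 0.74 in untreated S (-1.03 and -0.45). The copies of RPS0, needed to finish the small subunit RNA, had the same sign on both arrays in 7 of 8 comparisons: A lay above B in wild-type G1 with MMS (0.34 and 0.42) and below it between the strains in G1 with MMS (-0.57 and -0.64). RPS14 turned between phases, with A below B by 0.75 in esa1-L254P G1 and above it by 0.55 in S.

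For other pairs the differences on single arrays went with the dye, or the spots lay far apart. A minus B for RPL15 had opposite signs on the arrays in all 8 comparisons, and the dye terms of the copies were 0.86 and -0.21. The mean of both arrays cancels an equal dye effect. In these means RPL15A and RPL15B still differed by 0.42 on average, most in esa1-L254P G1 with MMS (A minus B -0.79). RPL33A and RPL33B gave 0.84 and -2.20 on the arrays of wild-type G1 with MMS, and the spots of RPL33A are among those far apart. The pairs RPL35, RPS6 and RPS10 differed least, by 0.06 in each case.

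**Figure D5:**
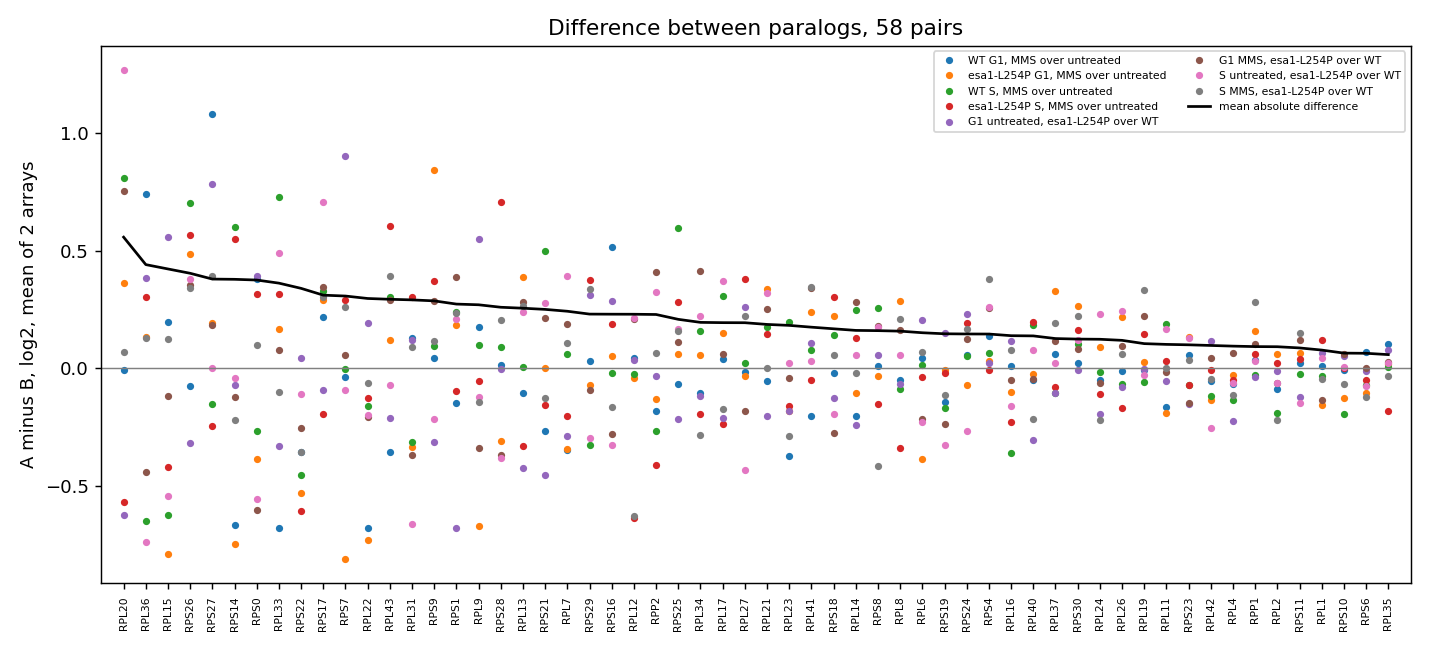
A minus B (log2, mean of 2 arrays, vertical axis) for the 58 paralog pairs, ordered by their mean absolute difference (black line, from 0.56 for RPL20 to 0.06 for RPL35); each colour is 1 of the 8 comparisons. Most pairs have points on both sides of 0.

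Genes around the ribosomal proteins, whose own dye effects were mostly smaller, give values that depend less on the dye term. Of the regulators of ribosomal protein genes, 18 of 21 were measured. IFH1, the coactivator that binds Fhl1 at these promoters, was lower with MMS in all 4 comparisons without the dye term: -0.48 in wild-type G1 (adjusted p = 0.00298), -0.64 in esa1-L254P G1 (-0.77 and -0.51, adjusted p = 0.00104), -1.25 in wild-type S (-1.21 and -1.28, adjusted p = 1.41e-05) and -1.08 in esa1-L254P S (-1.12 and -1.05, adjusted p = 4.07e-05). RRP7, an assembly factor found in a complex with Ifh1, was higher in wild-type G1 (0.65 and 0.58, adjusted p = 0.000289) and lower in esa1-L254P G1 (-0.69 and -0.58, adjusted p = 0.000515) and in wild-type S (-0.67 and -0.84, adjusted p = 7.55e-05). Of the 18, 7 were lower and 5 higher in wild-type G1 (median -0.33), against 16.9% and 19.5% of all genes, and 3 and 3 in esa1-L254P G1 (0.05), against 14.6% and 13.6%. In wild-type S 9 were lower and 3 higher (-0.27), against 20.7% and 18.2%, and in esa1-L254P S 8 and 1 (-0.26), against 17.0% and 16.3%. FHL1 was lower in S in both strains (-0.48 and -0.42, adjusted p = 0.000758 and 0.00222). TPK2, a catalytic subunit of protein kinase A, was higher in wild-type S (0.73 and 0.97, adjusted p = 0.00018), whereas TPK3, another one, was lower (-0.61 and -0.78, adjusted p = 0.000169). SFP1 was higher in esa1-L254P in untreated S (0.66 and 0.54, adjusted p = 0.00275).

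Proteins that carry single ribosomal proteins or finish subunits had 16 of 22 genes measured. With MMS, 13 of the 16 were lower in esa1-L254P G1 (median -0.58), 14 in wild-type S (-0.78) and 11 in esa1-L254P S (-0.56) without the dye term, and 6 were lower and 1 higher in wild-type G1 (-0.20). The shares of all genes lower were 14.6%, 20.7%, 17.0% and 16.9% in that order. PUF6, an assembly factor, was lowest in S (-1.19 and -1.34 in wild type, adjusted p = 8.89e-06). LSG1, the GTPase that frees an export factor from the large subunit, was lower in all 4, between -0.84 and -0.52. KAP123, which imports ribosomal proteins into the nucleus, read -1.30 and -1.32 in wild-type G1 (adjusted p = 0.00108). FAP7, which binds Rps14, was higher in wild-type G1 (0.44) and lower in esa1-L254P G1 (-0.65).

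All 31 translation factors of the list were measured. Their medians with MMS were -0.42, -0.30, -0.46 and -0.57, with 5, 1, 4 and 4 of 31 lower without the dye term and 16, 12, 13 and 17 with it. Of all genes, 16.9%, 14.6%, 20.7% and 17.0% were lower without it and 27.6%, 27.5%, 32.3% and 30.3% with it. Their dye terms were intermediate, with a median of 0.30. DED1, an RNA helicase of initiation, was lower in wild-type G1 (-1.79 and -1.17, adjusted p = 0.000601), and untreated it was lower in esa1-L254P in G1 (-1.08, adjusted p = 0.00619) and higher in S (0.98, adjusted p = 0.0103). Of 57 mitochondrial ribosomal protein genes, which serve another ribosome and had a median dye term of 0.01, 31 were lower in esa1-L254P G1 with MMS (median -0.43) and 0 higher without the dye term, against 14.6% and 13.6% of all genes. In wild-type G1 10 were lower and 12 higher (median 0.07), against 16.9% and 19.5%. In wild-type S 9 were lower and 5 higher (median -0.06), against 20.7% and 18.2%, and in esa1-L254P S 0 were lower and 4 higher (median 0.11), against 17.0% and 16.3%. MRPL44 read -1.21 and -0.996 in esa1-L254P G1 (adjusted p = 0.000179). In untreated G1, MRPL24 (1.12 and 1.04, adjusted p = 0.000691) and MRP21 (0.89 and 0.76, adjusted p = 0.000461) were higher in esa1-L254P, and in untreated S both were lower (-0.78 and -0.68).

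RPP1, the RNase P subunit gene that the symbol pattern also caught, had a dye term of 0.06. With MMS it was lower in wild-type G1 (-0.80 and -0.88, adjusted p = 7.58e-05), in esa1-L254P G1 (-0.34, adjusted p = 0.0137) and in esa1-L254P S (-0.52, adjusted p = 0.00112) without the dye term, and at 0.02 in wild-type S. MAG1, the glycosylase gene that responds to MMS, was higher in all 4 MMS comparisons (0.86 to 1.09), which checks the direction of the ratios in those comparisons. ESA1 itself, whose point allele need not change its transcript level, was higher in esa1-L254P in untreated G1 (0.68, adjusted p = 0.000448), and at 0.10 in untreated S, 0.25 in G1 with MMS and 0.35 in S with MMS it did not pass.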

How the data were processed

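The log2 ratios were deposited by the authors as 1 normalized column per array, and the base of the logarithm is not stated. Per the labels' protocols, polyadenylated RNA was copied from oligo-dT primers into aminoallyl cDNA and coupled to Cy3 or Cy5. The submitters' processing notes name R 3.1.1 and limma 3.0. No per-sample column was left unmapped, and array medians lay between -0.0058 and 0.0048.

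The rows followed no order that named the spots directly. Of 15552 orders searched, 1 made duplicate spots agree (score 1.25 against 0.03 for the next). Duplicates not used in the search then correlated at 0.68 to 0.95, against -0.03 to 0.03 for rows taken by probe number. Of 15744 spots, 8152 had 1 gene symbol and 7592 none, which gave 4073 genes, and spots of a gene were averaged. Names were updated to the RefSeq table for 125 genes, 3940 were current and 8 were kept. No coordinates or sequences were used here.

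Arrays with exchanged dyes were turned by sign, and limma 3.58.1 in R 4.3.3 was fitted to all 16 arrays with 8 coefficients. P-values were adjusted by Benjamini-Hochberg over 4073 genes within each comparison, at a threshold of 0.05. The array number is the dye orientation. Same-numbered arrays deviated together in all 28 pairs of comparisons (r 0.62 to 0.89), so the number pairs the arrays, and the fit with it as a block (the dye term) is given beside the fit without. The fits were tested on simulated data. Genes named are the 3 highest and 3 lowest members of each comparison, members with set roles and the pairs that differ most and least. Members that correlate least with the median member and genes of the lists with the smallest p are named too. The members and lists were chosen with earlier results of these data known. Alternatives were the block in all arrays or in each phase, a closed-loop fit, centring on other genes, quantile normalization, each spot alone, either way of forming the interaction and leaving out each array. Arrays number 2 per comparison, which limits the precision.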

Additional observations from a re-analysis of the deposited data

Results flagged for a closer look

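Effects that differed between groups by a test of the difference itself, in limma with the dye term, were these. The MMS response differed between the strains for 103 members in G1 and for 54 in S. These are 76.3% and 40.0% of the members, against 63.0% and 44.6% of all genes called in either direction. It differed between G1 and S for 62 members in wild type and for 23 in esa1-L254P. These are 45.9% and 17.0%, against 51.6% and 27.7% of all genes. The untreated strain difference differed between the phases for 80 members (59.3%, against 54.1% of all genes). The share of members was thus below that of all genes in S and in both strains' phase differences. Without the dye term the same tests called 1, 0, 0, 0 and 0 members.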

How the results depend on the processing

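The count of members called changed with the dye term and with the closed-loop fit. In the order MMS in wild-type G1, esa1-L254P G1, wild-type S and esa1-L254P S, it was 2, 2, 3 and 4 without the block, 42, 131, 103 and 123 with the replicate block, 41, 132, 102 and 124 with a block in each phase, and 51, 133, 115 and 122 in the closed-loop fit with the block. For the strains in untreated G1, G1 with MMS and untreated S, 0 members without the block became 74, 20 and 51 with it, 73, 23 and 51 by phase, and 93, 49 and 62 in the loop; in S with MMS the loop called 1. For the strain difference of the MMS response, 1 in G1 and 0 in S became 103 and 54, 102 and 53, and 104 and 58. For the phase differences in wild type, in esa1-L254P and of the untreated strain difference, 0 became 62, 23 and 80, then 58, 22 and 77, and 79, 50 and 87 in the loop. The block only removes the dye term from the spread between arrays. Shares of all genes are given above for the fits with and without it. Under the other settings of this section only members were counted. Whether a change in those counts belongs to the members or to all genes is thus not shown.

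Quantile normalization called 1 member in wild-type G1, 2 in esa1-L254P S, 2 for the strain difference in G1 and 2 for the phase difference of the untreated strains. It moved the medians to -0.65 (strain difference, G1), -0.42 (phase, wild type), 0.30 (phase, esa1-L254P) and 0.019 (strains in S with MMS, reversed). The first spot alone called 1 in wild-type G1 and 2 for the strain difference in G1, and the second 0 and 0. Either way of forming that difference alone called 0. These counts, and those after quantile normalization, are from fits without the dye term. With the dye term, the MMS comparisons alone called 97 members lower and 0 higher for that difference. The strain comparisons alone then called 72 lower and 6 higher. The median of the strain difference in S turned to -0.12 from the MMS comparisons alone. The cause was not tested for any of these.

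Named members with ratios near 0 turned sign. With quantile normalization RPL40B in wild-type G1 gave -0.026, RPL41A, RPL41B and RPS30A in esa1-L254P S gave 0.042, 0.062 and 0.036, RPL30 in untreated G1 gave -0.0028, RPL4A, RPL4B and RPL5 in G1 with MMS gave -0.029, -0.070 and -0.057, and RPL40B in S with MMS gave 0.0031. With the first spot RPL40A, RPL40B and RPS3 in wild-type G1 gave 0.00995, -0.056 and 0.021, RPP0 in untreated G1 gave 0.0080, RPL3 and RPL30 in G1 with MMS gave 0.010 and 0.038, and RPL40B and RPL4A in S with MMS gave 0.047 and 0.037. With the second spot RPS3 and RPS31 in S with MMS gave 0.046 and -0.068. The loop gave -0.060 for RPL40B in wild-type G1, 0.046 for RPP0 in untreated G1 and -0.016 for RPL5 in G1 with MMS, and centring on other genes gave -0.024 for RPL40B in wild-type G1.

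Leaving out each array, with or without the block, gave counts of 0 to 46, 0 to 119, 0 to 90 and 0 to 85 for MMS in the order above, 0 to 51, 0 to 15 and 0 to 19 for the strains, and, with the block only, 88 to 107 and 40 to 51 for the strain difference in G1 and S, and 30 to 74, 1 to 21 and 50 to 70 for the phase differences. Medians ranged from -0.84 to 0.50 in wild-type G1, -2.57 to -0.26 in esa1-L254P G1, -1.61 to -0.07 in wild-type S, -1.98 to 0.089 in esa1-L254P S, -0.57 to 1.76, -1.51 to 0.98, -1.13 to 0.64 and -1.01 to 0.99 for the strains (untreated G1, G1 with MMS, untreated S, S with MMS) and, with the block only, -0.075 to 0.18 for the strain difference in S, and -0.97 to -0.33 and 0.31 to 0.60 for the phase differences in wild type and esa1-L254P. A lone array is assumed to vary like the others. The median paralog difference of 0.19 became 0.28 to 0.32. Without the block the remaining array is the estimate, so the 104, 25, 56 and 82 members whose arrays lay on opposite sides of 0 turned sign without 1 of them in the MMS comparisons, and 127, 131, 115 and 131 did for the strains. With the block, named members that turned were, in wild-type G1, RPL40A (-0.34 to 0.24), RPL40B (-0.44 to 0.44) and RPS3 (-0.24 to 0.22), in wild-type S RPP2B (-0.34 to 0.10) and RPS14A (-0.42 to 0.087), in G1 with MMS RPL3 (-0.43 to 0.35), RPL30 (-0.25 to 0.19), RPL40A (-0.73 to 0.0087), RPL4A (-0.36 to 0.77), RPL4B (-0.19 to 0.47) and RPL5 (-0.33 to 0.63), and in S with MMS RPL40B (-0.087 to 0.083), RPL41A (-0.048 to 1.16), RPL4B (-0.16 to 0.030), RPP0 (-0.50 to 0.32) and RPS3 (-0.12 to 0.0063). Subgroups by Rap1 motif and by intron were not run, since promoter and exon tables were not used here.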
